A study of Saccharomyces cerevisiae with 6 samples.

Results

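The *FLO* genes of budding yeast encode flocculins and adhesins, and 5 of them were taken here, *FLO1*, *FLO5*, *FLO9*, *FLO10* and *FLO11*, out of 6002 nuclear protein-coding genes in the R64 annotation (sacCer3). The genes were selected on their Nic96 peaks at 37 °C, since *FLO1*, *FLO9* and *FLO11* carry peaks over 1 kb in both peak lists. Their peak counts, widths and shares under peaks are therefore descriptions without a test. A gene was counted as carrying a peak when at least 1 bp of it was overlapped by a peak with a q-value under 0.05. Peaks on the 5 genes made up 7 of 993 *wt* peaks and 5 of 608 *tho* peaks.

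ChIP-seq was performed on myc-tagged Nic96, a scaffold nucleoporin, in cells of the S288C-derived strain BY4742, with 6 libraries of 1 condition each. All strains were MATalpha his3Δ1 leu2Δ0 lys2Δ0 ura3Δ0 with the plasmid pRS313, and all libraries were immunoprecipitated with the same anti-Myc antibody. The *wt* tagged strain carried Nic96-13myc-KanMX, the *tho* tagged strain carried the same tag with mft1::NatMX, and the untagged *tho* control carried mft1::KanMX, so that tagged and untagged *tho* cells differ in the deletion marker. Cells grown at 25 °C were kept for 15 min at 37 °C. The 2 lists used are those of tagged *wt* and *tho* cells at 37 °C, each called by the authors against the untagged library of that strain at that temperature. The libraries at 25 °C were not analysed here, so the peaks below cannot be ascribed to heat shock. With 1 library per condition, no difference between *wt* and *tho* has a replicate check. The number of reads is unknown, and fold enrichment and q-values were set side by side between lists only as the authors' values.

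Flocculins are large mannoproteins of the cell wall, attached through a GPI anchor, with a binding domain at the N-terminus and a long central domain rich in serine and threonine that is encoded by tandem repeats. The proteins encoded by *FLO1*, *FLO5*, *FLO9* and *FLO10* are known for cell-to-cell adhesion, and Flo11 for adhesion to surfaces, invasive growth and filament formation. These genes lie near chromosome ends. In S288C derivatives they are largely silent, and *FLO8*, which encodes an activator of *FLO* genes, carries a nonsense mutation. Their expression was not measured here. Nic96 belongs to the inner ring of the nuclear pore complex, and Mft1 is a subunit of the THO complex, which acts in mRNP assembly during transcription.

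The repeats themselves are shown first, because most of the peak sequence on these genes lies in them. Internal repeats were taken as bases in 25-mers that occur at least 2 times on the same strand of a gene. In *FLO1*, *FLO5* and *FLO9* the commonest distance between such copies was 135 bp, in *FLO10* 189 bp and in *FLO11* 81 bp. The stretches of these lengths below come from the sacCer3 genome and are written along the coding strand. The *FLO1* stretch (chrI:205551-205685, plus strand) starts at the copy of its commonest 25-mer nearest to the *wt* summit. Those of *FLO5* (chrVIII:526865-526999, plus strand) and *FLO9* (chrI:26226-26360, minus strand) are the closest matches to it under their *wt* repeat peaks, and capitals mark bases that differ from *FLO1*.
FLO1: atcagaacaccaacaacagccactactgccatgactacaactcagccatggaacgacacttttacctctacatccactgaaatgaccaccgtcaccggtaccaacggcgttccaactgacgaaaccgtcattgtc
FLO9: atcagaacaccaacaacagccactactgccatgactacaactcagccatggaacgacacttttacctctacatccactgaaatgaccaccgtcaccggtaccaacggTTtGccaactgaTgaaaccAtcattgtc
FLO5: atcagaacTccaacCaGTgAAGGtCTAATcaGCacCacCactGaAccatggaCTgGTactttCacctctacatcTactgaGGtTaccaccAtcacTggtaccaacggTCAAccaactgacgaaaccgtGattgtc
The *FLO9* stretch differed from *FLO1* at 5 of 135 bases (96.3% identical) and that of *FLO5* at 35 (74.1% identical). The commonest 25-mer of *FLO1* occurred 9 times in *FLO1*, 9 times in *FLO9* and 0 times in *FLO5*.

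*FLO10* and *FLO11* have repeats of their own. The stretches below, of *FLO10* (chrXI:647622-647810, plus strand) and *FLO11* (chrIX:391669-391749, minus strand), contain the *wt* summits of these genes, and capitals mark the commonest 25-mer of each gene.
FLO10: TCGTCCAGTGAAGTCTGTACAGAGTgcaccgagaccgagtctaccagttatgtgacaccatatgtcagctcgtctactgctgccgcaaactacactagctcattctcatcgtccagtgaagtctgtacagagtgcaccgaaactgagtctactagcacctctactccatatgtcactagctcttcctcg
FLO11: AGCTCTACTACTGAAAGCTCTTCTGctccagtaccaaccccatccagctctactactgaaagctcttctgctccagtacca
The capital 25-mer occurred 9 times in *FLO10* and 17 times in *FLO11*, and its second copy can be read in lower case within each stretch. Further distances of 36 bp were frequent in *FLO11*. The number of repeat units in the strains used was not measured, and all positions refer to the reference genome.

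In *wt*, 5 of 5 *FLO* genes carried a peak, in a list that overlapped 792 of 6002 genes (13.2%), and 3 of 5 carried a peak over 1000 bp, compared with 46 of 6002 (0.766%). In *tho*, 4 of 5 carried a peak, in a list that overlapped 448 genes (7.46%), and 3 of 5 a peak over 1000 bp, compared with 152 genes (2.53%). The genes were chosen on these counts, so nothing is read from the difference. The narrowest peaks just over the limit were those of *FLO9*, of 1092 bp in *wt* and 1107 bp in *tho*, and that of *FLO11* in *wt*, of 1136 bp. The widest below it were 633 bp on *FLO5* and 540 bp on *FLO10* in *wt*, and 444 bp on *FLO11* in *tho*. No other annotated gene was overlapped by any of the peaks on the *FLO* genes.

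*FLO1* (YAR050W, chrI:203403-208016, plus strand) encodes a flocculin that binds mannose on other cells and lies 22202 bp from the end of its chromosome arm, between *SWH1* and YAR064W. Of its 4614 bp, 2152 bp (46.6%) were internal repeat, in a block from position 832 to 3161 counted from the first base of the coding sequence. The *wt* peak was 2031 bp wide and ran from position 942 to 2972, with a fold enrichment over the untagged library of 1.74 at its summit and a −log10 q-value of 4.53. The *tho* peak was 1789 bp wide and ran from position 1099 to 2887, with 2.75-fold enrichment and a −log10 q-value of 31.7. The *tho* peak lay wholly inside the *wt* peak, and both started and ended within the repeat block. The summits were 748 bp apart, at position 2459 in *wt* and 1711 in *tho*. The peaks ended 1642 bp (*wt*) and 1727 bp (*tho*) before the end of the gene.

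*FLO9* (YAL063C, chrI:24000-27968, minus strand) lies on the other arm of the same chromosome, 23999 bp from its end, between YAL063C-A and *GDH3*. It holds 1369 bp of internal repeat in 3969 bp (34.5%). The *wt* peak was 1092 bp wide, from position 1107 to 2198, with 1.80-fold enrichment and a −log10 q-value of 6.81. The *tho* peak was 1107 bp wide, from position 1105 to 2211, with 1.87-fold enrichment and a −log10 q-value of 16.7. *FLO9* had the closest match of peak ends between the lists, with starts 2 bp and ends 13 bp apart in coding direction. The summits, at positions 1692 and 1701, were 9 bp apart and both fell in the stretch printed above. All bases of both peaks were internal repeat.

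*FLO11* (YIR019C, chrIX:389572-393675, minus strand), also called *MUC1*, lies farthest from a chromosome end among the 5, at 46213 bp, and its neighbours are YIR018C-A and YIR020C. Internal repeats made up 1935 of its 4104 bp (47.1%). The *wt* peak was 1136 bp wide, from position 1104 to 2239, with 2.34-fold enrichment and a −log10 q-value of 17.7, and 9 of the 993 *wt* peaks had a higher −log10 q-value. The wider *tho* peak, of 1224 bp, with 2.05-fold enrichment and a −log10 q-value of 27.2, ran from position 1064 to 2287 and contained the *wt* peak. The summits lay at 1986 in *wt* and 1418 in *tho*, 568 bp apart. *FLO11* carried a further *tho* peak of 444 bp nearer to its 3′ end, from position 2929 to 3372, with 1.42-fold enrichment and a −log10 q-value of 1.89. This peak had 23.4% of its bases in internal repeats, and every 75-mer in it occurred once in the genome. A *wt* peak of 362 bp from position 3605 to 3966 had a q-value of 0.103 and was not counted.

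*FLO10* (YKR102W, chrXI:646356-649865, plus strand) lies nearest to an end, at 16951 bp, between *SIR1* and *NFT1*. It has the fewest repeats of the 5, with 872 bp in 3510 bp (24.8%). The *wt* peak was 540 bp wide, from position 1222 to 1761, with 2.32-fold enrichment and a −log10 q-value of 11.4. The *tho* peak was 335 bp wide, from position 1304 to 1638, with 1.37-fold enrichment and a −log10 q-value of 2.42. Although the *tho* peak was narrower, with a width ratio of 0.620, its summit at position 1377 lay 2 bp from that of *wt* at 1375. Both summits lay in repeated sequence, so this distance is uncertain. The *tho* peak was also among the lowest of its list, with 602 of 608 *tho* peaks having a higher fold enrichment. In *wt*, 53 of 993 peaks had a higher fold enrichment than the peak on *FLO10*.

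*FLO5* (YHR211W, chrVIII:525392-528619, plus strand), a close relative of *FLO1*, was the member whose peaks differed most from this pattern. It lies 34024 bp from a chromosome end, between YHR210C and YHR212W-A, and has 921 bp of internal repeat in 3228 bp (28.5%). In *wt* it carried 3 separate peaks. The first, of 240 bp from position -5 to 234, spanned the start codon, with 2.49-fold enrichment and a −log10 q-value of 8.17. The second, of 509 bp from position 1145 to 1653 in the repeats, had 1.52-fold enrichment and a −log10 q-value of 2.49. The last, of 633 bp from position 2577 to 3209, ended 19 bp before the end of the gene and had 1.94-fold enrichment and a −log10 q-value of 3.69. The highest fold enrichment on *FLO5* was thus at its 5′ end and the lowest in its repeats. In *tho*, 0 peaks were found on *FLO5*, also when all deposited peaks were counted.

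**Figure D1:**
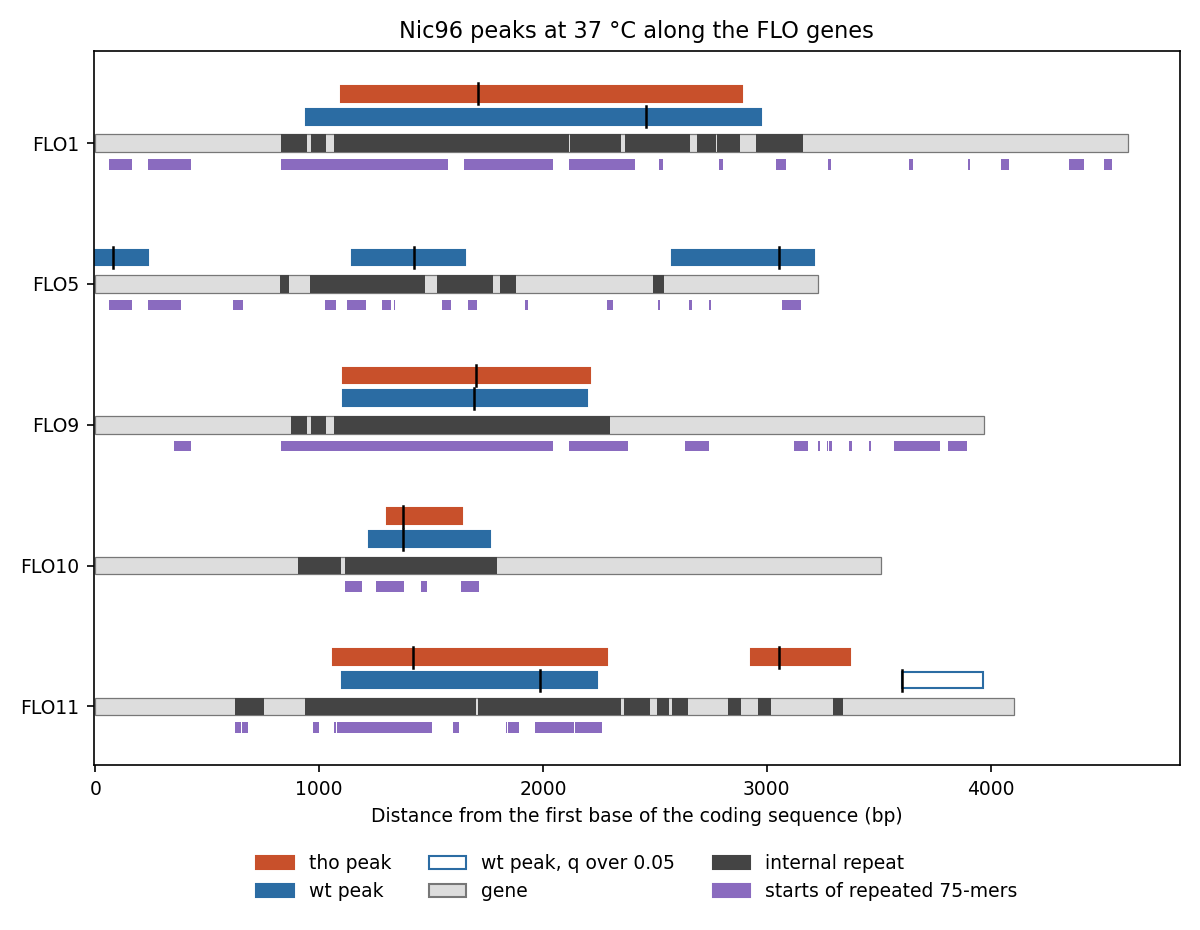
Positions of Nic96 peaks at 37 °C (coloured bars, with a black line at each summit; outlined where the q-value is over 0.05) along the 5 *FLO* genes, as the distance from the first base of the coding sequence in bp. Dark parts of the grey gene bars are internal repeats and violet bars mark where 75-mers found more than once in the genome start. The peaks of *FLO1*, *FLO9* and *FLO10*, and the widest peaks of *FLO11*, lie over the dark parts, while *FLO5* has *wt* peaks at both ends and no *tho* peak.

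Peak bases on the *FLO* genes lay mostly in internal repeats. In *wt*, 5062 of 6175 peak bases (82.0%) were internal repeat, and in *tho* 4485 of 4899 (91.5%), whereas internal repeats made up 37.3% of the 5 genes. Seen from the gene, peaks covered 69.8% of the 7249 bp of internal repeat in *wt* and 9.14% of the other 12176 bp. In *tho* it was 61.9% of the repeats and 414 bp outside them. The share of the repeats covered ranged in *wt* from 49.3% in *FLO5* to 86.1% in *FLO1*, with 79.8% in *FLO9*, 61.8% in *FLO10* and 58.1% in *FLO11*. In *tho* it was 80.3% in *FLO1*, 80.9% in *FLO9*, 68.0% in *FLO11*, 38.3% in *FLO10* and 0% in *FLO5*. *FLO5* in *wt* was the exception to the concentration on repeats, with 922 of its 2307 other bases covered.

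**Figure D2:**
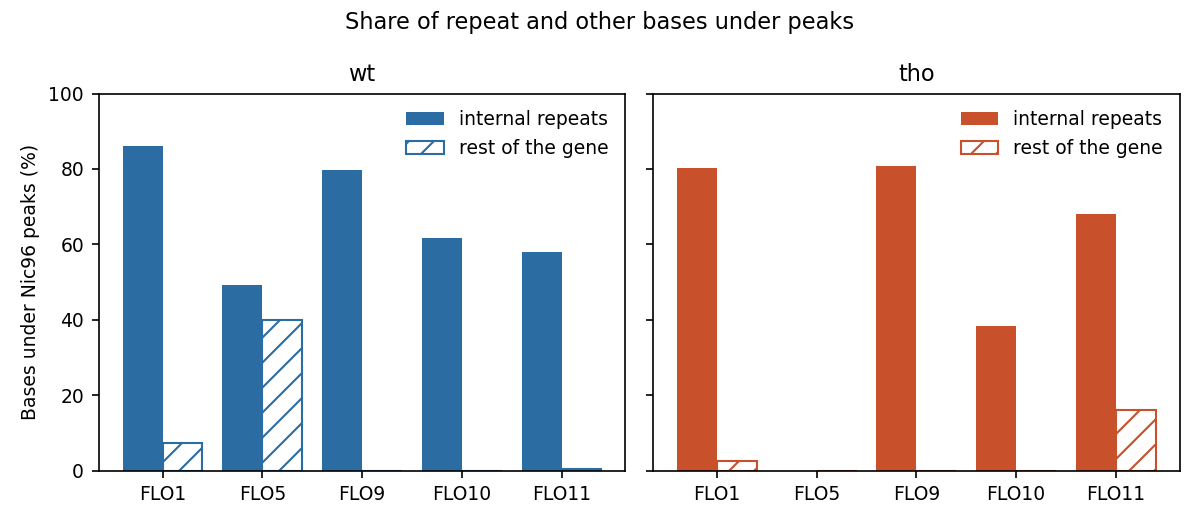
Share of bases under Nic96 peaks (%) in the internal repeats (filled bars) and in the rest of each gene (hatched bars) for *wt* (left) and *tho* (right). Filled bars exceed hatched bars in all genes with a peak, least in *FLO5* in *wt* (49.3% of the repeats, and 922 of 2307 other bases), and *FLO5* has no bar in *tho*.

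Within the genes, the peaks kept away from the 3′ end in most members. When each gene was cut into 3 equal parts, the middle part had the largest share under peaks in *FLO1* (93.2% in *wt* and 87.7% in *tho*), *FLO9* (66.1% and 67.1%), *FLO10* (46.2% and 28.6%) and *FLO11* (63.7% and 67.2%). The last part was covered only in *FLO5* in *wt* (58.8%) and in *FLO11* in *tho* (32.5%). Over whole genes, peaks covered 44.0% of *FLO1* in *wt* and 38.8% in *tho*, 27.5% and 27.9% of *FLO9*, 27.7% and 40.6% of *FLO11*, 15.4% and 9.54% of *FLO10*, and 42.6% and 0% of *FLO5*. *FLO11* was the only member with over 1 percentage point more under peaks in *tho* than in *wt*, which came mainly from its 3′ peak.

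Reads were 75 nt long, so a read wholly inside a 75-mer that occurs more than once in the genome has no single place by itself. The part this had in the peaks was not tested, and its extent is given here. Of the 75-mers in the *FLO* peaks, 62.1% in *wt* and 66.6% in *tho* occurred again in the genome on either strand, compared with 18.2% and 6.76% over all peaks of the lists and 5.32% over the genome. The share was highest on *FLO9*, with 92.7% in *wt* and 92.8% in *tho*, all of them shared with another *FLO* gene. On *FLO1* it was 69.3% and 70.0%, with 65.8% and 65.9% of all 75-mers shared with another *FLO* gene. Judged by single reads, the signal on the repeats of *FLO1* and *FLO9* is therefore uncertain as to which of these genes it came from. The 75-mer centred on the summit occurred 4 times in the genome on *FLO9* and 2 times on *FLO10*, in both lists. On *FLO1* and *FLO11* it occurred 6 times in *tho* and 1 time in *wt*. Where it was repeated, the position of the summit, and so the distance between summits, is uncertain by single reads. Reads were paired, and how far mates in unique sequence placed them was not tested. By contrast, the repeated 75-mers of the peaks on *FLO10* (44.6% and 39.8%) and of the widest peaks on *FLO11* (63.5% and 65.4%) recurred only within the same gene, so reads from these peaks belong to the gene even where their position in it is uncertain. None of the peaks on the 5 genes had a 75-mer in common with a place outside the *FLO* genes.

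**Figure D3:**
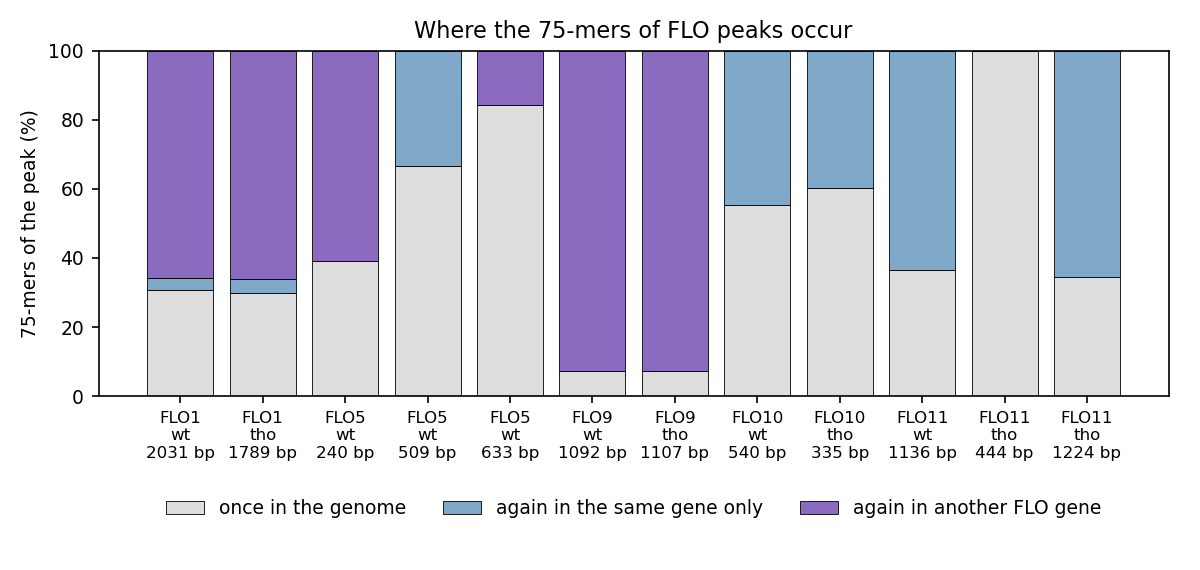
Share of the 75-mers (%) of each peak on a *FLO* gene that occur once in the genome (grey), again only within the same gene (blue) or again in another *FLO* gene (violet), with gene, list and peak width under each bar. Violet prevails on *FLO1*, *FLO9* and the 240-bp peak of *FLO5*, and is absent from *FLO10*, *FLO11* and the 509-bp peak of *FLO5*.

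Over whole genes, 35.3% of the 75-mers of *FLO1* were found in *FLO9*, and 42.7% of those of *FLO9* in *FLO1*, while *FLO5* had 9.77% of its 75-mers in *FLO1* and 4.66% in *FLO9*. *FLO10* and *FLO11* shared 75-mers with no other gene. The peak at the 5′ end of *FLO5* shared 101 75-mers with *FLO1* between positions 60 and 234, and the peak at its 3′ end shared 88 with *FLO9* and 16 with *FLO1*. No peak of either list lay at these matching places in *FLO1* and *FLO9*. Short relatives that share 75-mers with the *FLO* genes, namely YAL064W-B, YAL065C, YHR213W and the pseudogene YAR061W, also carried 0 peaks with a q-value under 0.05 in both lists. On YAR061W, 1 deposited *wt* peak did not meet this limit and was not counted.

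In width, the peaks on *FLO1*, *FLO9* and *FLO11* stood in the upper part of their lists, by their choice. In *wt*, 11 of 993 peaks were wider than that on *FLO1*, 30 were wider than that on *FLO11* and 34 than that on *FLO9*. In *tho*, where peaks over 1000 bp numbered 100 instead of 43, 50 of 608 were wider than the peak on *FLO1*, 81 than that on *FLO11* and 92 than that on *FLO9*. Their fold enrichments were less extreme. The median was 1.76 over all *wt* peaks and 1.95 over all *tho* peaks, and *FLO* peaks ranged from 1.52 to 2.49 in *wt* and from 1.37 to 2.75 in *tho*, where the highest peak of the list reached 24.8.

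**Figure D4:**
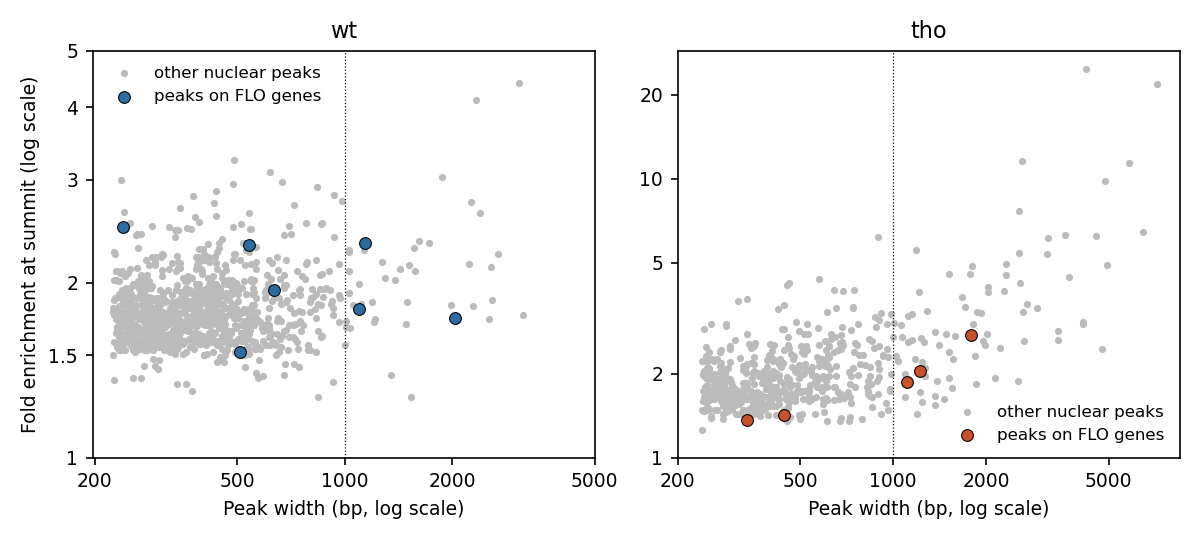
Width (bp) against fold enrichment at the summit for peaks with a q-value under 0.05 in *wt* (left) and *tho* (right), both axes on a log scale. Coloured points are peaks on *FLO* genes, grey points other nuclear peaks, and the dotted line marks 1000 bp. *FLO* peaks reach 2031 bp in *wt* and 1789 bp in *tho* at fold enrichments of at most 2.49 and 2.75.

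Set side by side, the *wt* and *tho* peaks of *FLO1*, *FLO9*, *FLO10* and *FLO11* overlapped. The summits of *FLO1* and *FLO11* lay apart, but their *tho* positions are uncertain, and the 444-bp *tho* peak of *FLO11* overlapped no *wt* peak. Of the *wt* peak bases, 88.1% in *FLO1*, 100% in *FLO9*, 62.0% in *FLO10* and 100% in *FLO11* were also under a *tho* peak, compared with 0% in *FLO5*. The reverse shares of *tho* peak bases under a *wt* peak were 100% in *FLO1*, 98.6% in *FLO9*, 100% in *FLO10* and 68.1% in *FLO11*. Whether the absence of a *tho* peak on *FLO5* is a difference between the strains cannot be told with 1 library each.

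The surroundings of the genes were examined as well. Within 10 kb of a *FLO* gene, *tho* had 4 peaks near *FLO1* and *wt* had 1. *FLO11* likewise had 4 in *tho* and 1 in *wt*. Near *FLO5* there were 3 in *tho* and 2 in *wt*, near *FLO9* 2 in each, and near *FLO10* 0 in *tho* and 1 in *wt*. The same count for other genes is not given here, so these numbers are not read as a trait of the *FLO* genes. All 4 *tho* peaks near *FLO11* lay 3′ of the gene, the nearest 766 bp past its end, 346 bp wide, with 2.19-fold enrichment and a −log10 q-value of 12.1. A *tho* peak of 386 bp lay 533 bp before *FLO1*, with a fold enrichment of 1.77. A *wt* peak of 377 bp lay 1079 bp before *FLO5*, with a fold enrichment of 1.86, and a *tho* peak at that place had a q-value of 0.0761 and was not counted. The widest neighbouring peak, 5839 bp in *tho* with a fold enrichment of 11.4, started 4519 bp before *FLO9* and reached over *GDH3*, *BDH2*, *BDH1*, *ECM1* and *CNE1*.

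*FLO1*, *FLO5* and *FLO9* had a *tho* peak at nearly the same distance past the 3′ end, 2981, 3004 and 2928 bp away. No *wt* peak lay at any of these places, also when all deposited peaks were counted, and no feature was annotated there. The peak past *FLO1* was 355 bp wide, with 2.17-fold enrichment and a −log10 q-value of 9.09. That past *FLO5* was 287 bp wide, with 1.89-fold enrichment and a −log10 q-value of 5.33, and that past *FLO9* was 244 bp wide, with 2.05-fold enrichment and a −log10 q-value of 7.43. The 3 peaks lay on copies of a single sequence. The aligned 244 bases are printed below along the strand of each gene, from chrI:211028-211271 (plus strand) for *FLO1*, chrVIII:531631-531874 (plus strand) for *FLO5* and chrI:20828-21071 (minus strand) for *FLO9* in sacCer3, with capitals where they differ from *FLO1*.
FLO1 3′ flank: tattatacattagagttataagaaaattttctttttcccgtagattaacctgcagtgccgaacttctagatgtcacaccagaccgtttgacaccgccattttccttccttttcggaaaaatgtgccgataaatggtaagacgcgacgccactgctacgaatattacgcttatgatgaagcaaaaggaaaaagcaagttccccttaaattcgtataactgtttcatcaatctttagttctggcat
FLO5 3′ flank: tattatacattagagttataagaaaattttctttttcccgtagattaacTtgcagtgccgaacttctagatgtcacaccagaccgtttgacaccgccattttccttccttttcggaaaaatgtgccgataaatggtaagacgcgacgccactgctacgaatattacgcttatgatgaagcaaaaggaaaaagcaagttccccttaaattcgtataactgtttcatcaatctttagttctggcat
FLO9 3′ flank: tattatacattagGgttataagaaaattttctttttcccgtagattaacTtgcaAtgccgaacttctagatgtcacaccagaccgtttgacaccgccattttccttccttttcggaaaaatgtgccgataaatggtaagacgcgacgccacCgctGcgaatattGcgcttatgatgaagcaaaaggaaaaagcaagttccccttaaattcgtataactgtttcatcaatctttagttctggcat
The *FLO5* copy differed from that of *FLO1* at 1 base and the *FLO9* copy at 6. Of the 75-mers in the peaks past *FLO1* and *FLO5*, 73.3% and 73.2% occurred again in the genome, and 287 bases of the pair aligned with 1 mismatch. The peak past *FLO9* had 15.9% repeated 75-mers. Further *tho* peaks lay 9172 bp past *FLO1* and 9196 bp past *FLO5*, with −log10 q-values of 8.54 and 8.23.

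For comparison, 35 other genes had at least 300 bp of internal repeat. Of these, 31 (88.6%) carried a *wt* peak and 22 (62.9%) a *tho* peak, compared with 13.2% and 7.46% of all genes. A peak over 1000 bp lay on 14 (40%) in *wt* and 7 (20%) in *tho*, compared with 0.766% and 2.53% of all genes. Of the 14, 12 lay within 50 kb of a chromosome end, and of the 7, 4 did. Among genes with fewer repeats that are at least as long as *FLO5*, 136 of 412 (33.0%) carried a *wt* peak and 56 (13.6%) a *tho* peak. Among those at least as near to a chromosome end as *FLO11*, 139 of 611 (22.7%) carried a *wt* peak and 71 (11.6%) a *tho* peak. Peaks over 1000 bp lay on 6 (*wt*) and 14 (*tho*) of the 412 genes, and on 7 and 24 of the 611. Of the 35 repeat genes, 23 lay within 50 kb of an end, where repeat and position cannot be told apart. These 23 include the subtelomeric helicase genes *YRF1*, with 97% (*YRF1-2*) to 100% (*YRF1-7*) of their 75-mers repeated in the genome. Peaks on such genes may rest on the same reads. The counts and shares of the 35 and of the 23 are therefore not those of separate genes. The other 12 of the 35 lay over 50 kb from an end, and 8 of them (66.7%) carried a *wt* peak and 6 a *tho* peak. Pooled over these 12 genes, peaks covered 61.3% of the internal repeats and 9.82% of the other bases in *wt*, compared with 69.8% and 9.14% in the *FLO* genes. *NUM1* and *HKR1* hold 2306 and 1007 of the pooled 7538 bp of repeat, with 96.7% and 99.8% covered. In *DDR48*, YNL190W, *PRM7*, *SED1* and *PIR1* the share of repeats covered in *wt* was 0%. In *tho* the pooled shares were 34.0% and 4.22%, compared with 61.9% of the repeats in the *FLO* genes. All covered repeats of the 12 genes in *tho* lay in *NUM1*, *HKR1*, *DDR48* and *UBI4*. In the 23 genes within 50 kb of an end, where the *FLO* genes also lie, peaks covered 70.6% of the internal repeats and 44.2% of the other bases in *wt*. In *tho* the pooled shares of these 23 genes were 7.11% of the repeats and 9.22% of the other bases, whereas in the *FLO* genes the repeats had the higher share. All covered repeats of the 23 genes in *tho* lay in YBL113C (64%) and *FIG2* (50%). Of the other bases of these genes, 42.9% and 2.67% were covered. As the shares of the 23 are not those of separate genes, nothing is read from the contrast with the *FLO* genes.

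**Figure D5:**
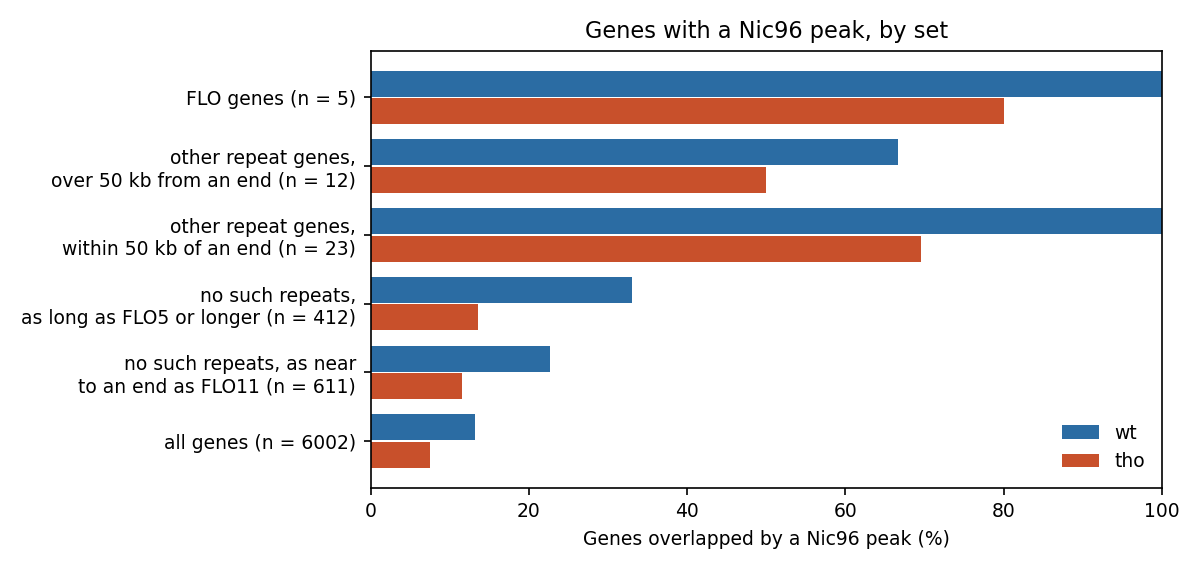
Share of genes overlapped by a Nic96 peak (%) in *wt* (blue) and *tho* (orange) for the *FLO* genes, other genes with at least 300 bp of internal repeat split at 50 kb from a chromosome end, genes with less internal repeat that match *FLO5* in length or *FLO11* in distance to an end, and all genes. The 3 sets with internal repeats range from 66.7% to 100% in *wt* and from 6 of 12 to 4 of 5 genes in *tho*, and the other sets from 13.2% to 33.0% and from 7.46% to 13.6%.

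Among single repeat genes, *NUM1*, which encodes a cortical protein for nuclear migration, was closest to *FLO1* in repeat length, with 2306 bp. A *wt* peak of 2259 bp covered 96.7% of its repeats and 0.471% of its other bases, and a *tho* peak of 1226 bp covered 53.1% of the repeats. *HKR1*, a mucin-like membrane protein gene, had a *wt* peak of 1714 bp over 99.8% of its repeats and 16.1% of its other bases, but a *tho* peak of 240 bp. *DAN4*, a wall mannoprotein gene, had a *wt* peak of 1095 bp and none in *tho*. The *wt* peak covered 35.7% of the repeats of *DAN4* and 28.9% of its other bases. YBL113C, 279 bp from a chromosome end, was covered to 97.5% in *wt* and 50.9% in *tho*. In *wt* this was 100% of its repeats and 96% of its other bases. *DDR48*, a gene induced by DNA damage, carried a peak in *tho* alone, of 424 bp. Of the 35 other repeat genes, 3 had peaks over 1000 bp in both lists, the trait on which *FLO1*, *FLO9* and *FLO11* were chosen. These were *NUM1* and, named after their values were seen, *YRF1-1* (1527 bp in *wt* and 1230 bp in *tho*) and *YRF1-4* (1380 and 1370 bp). The *YRF1* genes are near-identical members of a multigene family, so that signal on them is uncertain as to the copy. In *tho*, peaks covered only 13.2% of *YRF1-1* and 7.5% of *YRF1-4*. They covered 0% of the internal repeats of both genes in *tho* and 100% in *wt*, so the *tho* peaks were like those on the *FLO* genes in width only.

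The *FLO* genes also share a base composition. The coding strand had more C than G in all 5, with a GC skew, (G − C)/(G + C), of -0.25 in *FLO1*, -0.19 in *FLO5*, -0.26 in *FLO9*, -0.17 in *FLO10* and -0.41 in *FLO11*, compared with a median of 0.05 over all genes. Only 0.117% of genes had a lower skew than *FLO11*. In the internal repeats of each gene the skew was lower still, from -0.19 in *FLO10* to -0.50 in *FLO11*. The GC content of the 5 genes was 44.0% to 46.6%, compared with a median of 39.7%. Whether composition had a part in the peaks was not tested.

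Genes that act on flocculin expression were examined next. *FLO8*, the gene of an activator of *FLO* genes, is annotated as a pseudogene and carried no peak with a q-value under 0.05. A *wt* peak of 261 bp on it had a q-value of 0.0647. Of 8 other activators, 3 carried a *wt* peak, *TEC1*, *MGA1* and *ASH1*, of 405, 647 and 286 bp. In *tho* 1 did, *MGA1*, with a peak of 4860 bp and a fold enrichment of 9.79 with its summit at position -610, before the gene. Of 8 repressors, *SFL1*, a repressor of *FLO11*, carried 2 *wt* peaks and *RPD3*, a histone deacetylase gene, a *tho* peak. Of 11 genes of Ras/cAMP, Snf1 and MAP kinase signalling, *TPK3* carried a *wt* peak and *STE20* a *tho* peak, of 2721 bp. The summit of the *STE20* peak lay at position -266, before the gene. The counts of 3 of 8, 1 of 8 and 1 of 11 in *wt* and 1 of 8, 1 of 8 and 1 of 11 in *tho* stand beside 13.2% and 7.46% of all genes.

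Of 20 other genes for wall adhesins and mannoproteins, 10 carried a *wt* peak and 5 a *tho* peak, beside 13.2% and 7.46% of all genes. The *wt* genes were *FIG2*, *HKR1*, *TIR3*, *SPI1*, *MSB2*, *DAN4*, *CCW12*, *EGT2*, *HPF1* and *TIR4*, and the *tho* genes *FIG2*, *HKR1*, *SPI1*, *EGT2* and *HPF1*. Peaks over 1000 bp were found on *HKR1* and *DAN4* in *wt*, and on *EGT2* (1591 bp) and *HPF1* (2144 bp) in *tho*, beside 0.766% and 2.53% of all genes. None of these 20 genes had one in both lists. As *FLO1*, *FLO9* and *FLO11* were chosen for this trait, nothing is read from the contrast with them. *SPI1* and *CCW12* have no internal repeats. The *tho* peak counted for *SPI1* overlapped 123 bp of this 447-bp gene and had its summit past the gene, at position 794.

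The genes nearest in covered share to the mean of *FLO1*, *FLO9* and *FLO11* (33.1% in *wt* and 35.8% in *tho*), by the distance between the pairs of shares over the 2 lists, were *VHR1*, *BMH1*, *MTC3*, *FMP40* and *SEC24*. *VHR1* was nearest, with 32.9% and 33.9%. All 5 had 0 bp of internal repeat.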

How the data were processed

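Nic96 ChIP-seq peaks at 37 °C were taken from 2 of 6 samples, with 1 library per condition, and the other samples were not analysed here. According to the methods, the authors mapped paired-end reads of 75 nt to sacCer3 with Bowtie2, keeping perfect matches only, removed duplicates with SAMtools and ran MACS2 in narrow mode, each tagged library having as control the one without tag from its own strain. The submitters' processing notes also name deepTools 3.3.2. Deposited values of each peak are its fold enrichment, a ratio of tagged over untagged signal at its summit, its p-value and q-value as −log10, and a score equal to 10 times the −log10 p-value, cut to a whole number. A q-value limit of 0.05 is given in the methods, yet deposited q-values reached 0.178 in *wt* and 0.192 in *tho*, and the stated limit was applied. The number of reads is not given in the sources used here, so the depth, and the precision it gives, is unknown.

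Deposited starts were converted to count from 1, and all peaks ended within the chromosomes of R64, the RefSeq genome used for genes and sequences. A gene counted at 1 bp of overlap, and wide peaks were those over 1000 bp. Internal repeats were bases in 25-mers found at least 2 times on one strand of a gene, and repeat blocks joined repeats less than 200 bp apart. The 75-mers were counted on both strands of the genome, mitochondrial DNA included. Sequences past the genes were aligned with biopython 1.88 (local, match 1, mismatch -1, gap -3). Python 3.11.15, numpy 2.4.6, pandas 2.3.3 and matplotlib 3.10.9 were used. The counting code was tested on simulated data. No test was run, because the *FLO* genes were chosen from these lists and there are no replicates.

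The genes and gene lists were chosen with earlier results of these data known. Genes named are the 5 *FLO* genes, their neighbours, other features under the same peaks, the 5 other genes with the longest internal repeats, list members with a peak and the 5 genes with the nearest covered shares. From the signalling list, 1 gene is not reported here. The peaks around the genes, their copies, the short relatives, *FLO8* and further repeat genes were named after their values were seen. Alternatives changed the q-value limit, the width limit, the overlap, the merging of peaks, the length of the 75-mers and the definition of internal repeats.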

Additional observations from a re-analysis of the deposited data

How the results depend on the processing

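No paired analysis was possible because each condition has 1 library, and no replicate could be left out. Of 68 alternatives to 20 values, 51 stayed within the limits set for a change and 17 moved. With a width limit of over 1500 bp, 1 *FLO* gene carried a wide peak in *wt* and 1 in *tho*, *FLO1* in both, as 1500 bp exceeds the peaks of *FLO9* and *FLO11*. The number of *FLO* genes with any peak, 5 in *wt* and 4 in *tho*, was the same under the alternatives tried. With all deposited peaks, 36.5% of *FLO11* was covered in *wt*. With q under 0.01, which leaves out its 3′ peak, 29.8% was covered in *tho*. The share of repeated sequence in *FLO* peaks depended on the length read: in *wt* it was 72.5% with 50-mers, 53.1% with 100-mers and 37.4% with 150-mers, and 59.1% of 75-mers with all deposited peaks. In *tho* it was 73.8%, 58.4% and 42.1%, and 72.5% of 75-mers with q under 0.01. With internal repeats from 15-mers, 83.7% (*wt*) and 94.3% (*tho*) of peak bases were internal repeat, and with 50-mers 79.0% and 87.5%. With at least 150 bp of internal repeat, 38 of 54 other repeat genes (70.4%) carried a *wt* peak. Without the number of reads, genes without a peak cannot be told from genes with too little depth, and peak widths in the 2 lists may differ with depth.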
